A study of Mus musculus with 10 samples.

Results

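The nuclear-encoded genes of the respiratory chain were taken from the array by symbol: genes named Nduf followed by a, b, c, s or v and a digit (complex I), Sdha to Sdhd (complex II), Uqcr (complex III), Cox4 to Cox8 (complex IV) and Atp5 (complex V, the ATP synthase). The rule found 88 of 26423 probes and 77 of 19942 gene symbols, and all 77 genes passed the filter on low values and were tested among 16113 genes. They were 35 genes of complex I, 4 of complex II, 6 of complex III, 18 of complex IV and 14 of complex V. The rule uses names, so 3 genes came in that are not subunits: Cox4nb, which lies beside Cox4i1 and is now called Emc8, and Atp5s and Atp5sl, now Dmac2l and Dmac2. Ndufa4, kept with complex I by its name, is now counted as a subunit of complex IV. The probes of Ndufs5 and Atp5g2 also carry the symbol of another gene (BC002163 and Gm10175), so their signal may include it.

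The samples were left ventricles of male C57BL/6J mice that had transverse aortic banding (TAB), a constriction of the aorta that loads the left ventricle with pressure and leads to hypertrophy, or a sham operation without the constriction, at the age of 8 weeks. RNA was taken on day 3, day 5, day 7, day 14 or day 28, with 1 TAB and 1 sham sample on each of these 5 days and 10 samples in all. No genetic change was made in either group, and how many mice a sample held is not given in the sources used here. The Cy5-labelled RNA of a sample was read on its own 1-colour whole-genome array. The raw median intensity per array lay between 34 and 57, log2 values of the arrays correlated with r between 0.938 and 0.980 across genes, and no arrays held identical values. For the day 14 TAB library, 1 label says 15 days and the title says 14, which was followed here.

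The respiratory chain sits in the inner mitochondrial membrane. Complexes I and II take electrons from NADH and succinate and pass them through coenzyme Q to complex III, cytochrome c carries them on to complex IV, which reduces oxygen, and complex V makes ATP from the proton gradient that complexes I, III and IV build. Most subunits are encoded in the nucleus, and several subunits of complex IV exist as a muscle isoform and an isoform found in most tissues. The heart has one of the highest contents of these proteins, because its beating depends on a steady supply of ATP.

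The question here was whether the transcripts of these subunits differed between pressure-overloaded and sham ventricles, in which complexes, and on which days. Over the 5 days the members were mostly lower in TAB: 19 of 77 passed the test in the lower direction and 0 in the higher one (limma on log2 normalized intensity with day as a block, Benjamini-Hochberg adjusted p under 0.05 over all 16113 genes). That is 24.7% of the members called lower, against a background of 8.22% of all genes tested called lower and 9.52% called higher. The median log2 TAB/sham ratio of the members, averaged over the days, was −0.32 (a 0.798-fold level), and that of all genes was −0.03. At an unadjusted p under 0.05, 41 members were lower and 1 was higher, where 18.3% of all genes were lower at that limit. The count of calls depended on the processing: 3 members were called lower where probes below 1 were set to 1 in place of being dropped, and 30 to 41 lower and 1 higher under 5 other settings. Members share the arrays, so their calls are not independent of each other.

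Of the 19 members called lower, 18 had all 5 TAB samples below all 5 sham samples, and all 19 had a ratio below 0 on every day. In the whole set, 32 members had TAB samples entirely below the sham samples, against 7.72% of all genes, and 1 member, Cox6a1, had them entirely above, against 9.93% of all genes. The ratio was below 0 on all 5 days for 45 of 77 members and for 17.6% of all genes. The calls rest on all of days 3, 5 and 7: without the samples of any 1 of these days no member was called, while 4 genes in all were called lower without day 3, 39 without day 5 and 4 without day 7. Without day 14 there were 3 members called and without day 28 there were 18. The median ratio of the members stayed between −0.34 and −0.27 when single days were left out. Because the 5 samples of a group come from different days, the p-values measure how steady a difference was over days, not the spread between mice on a day.

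**Figure D1:**
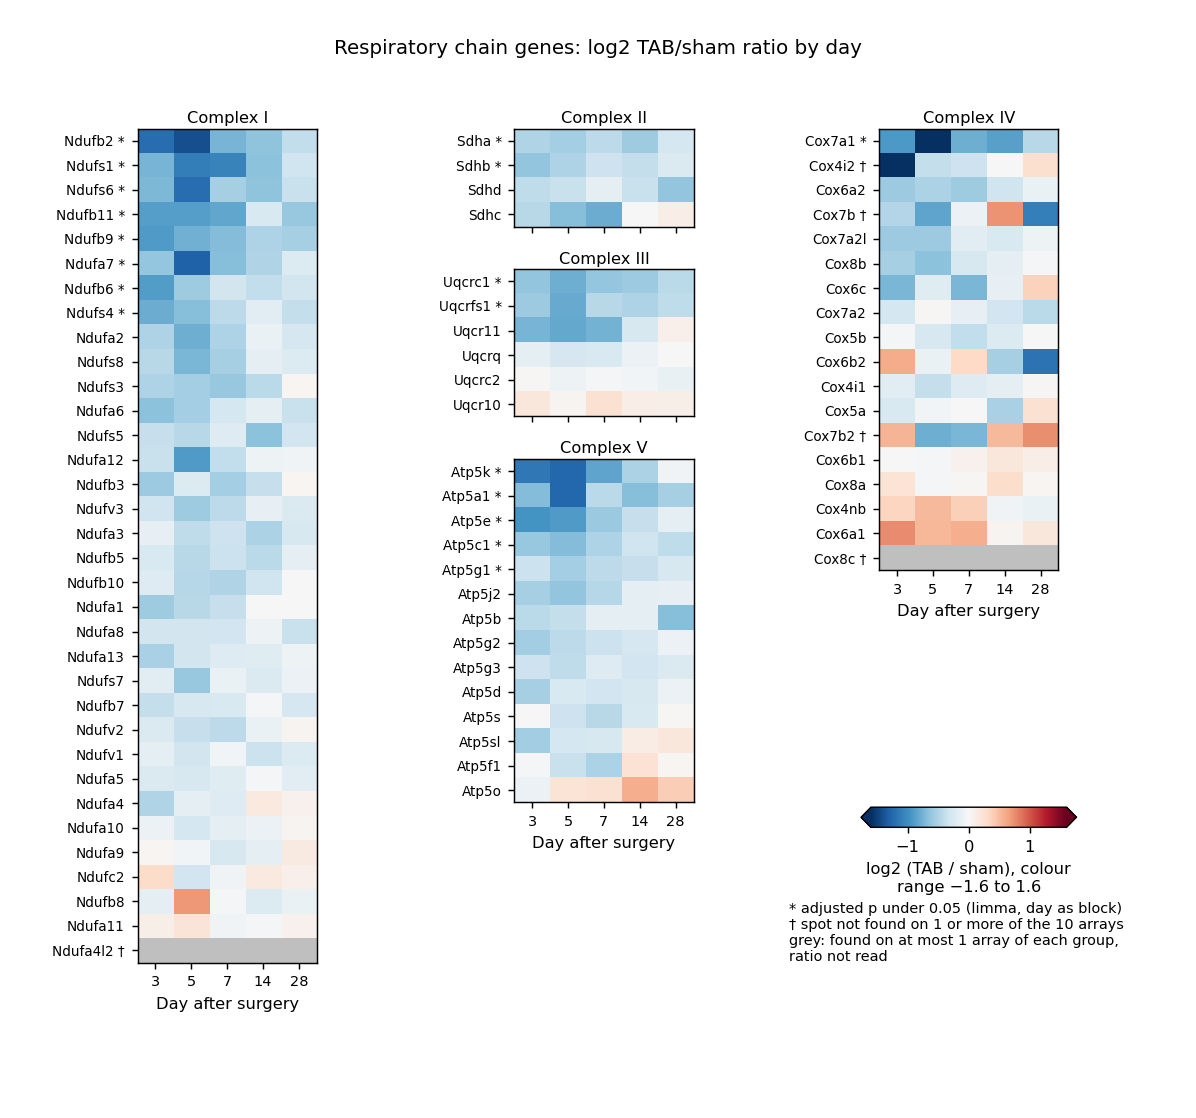
log2 TAB/sham ratio of the genes (rows, by complex, lowest mean ratio first) on each day after surgery (columns), with blue for lower and red for higher in TAB. Genes with an asterisk had an adjusted p under 0.05. The lowest ratio is that of the dim Cox4i2 on day 3 (−2.73, beyond the colour range). Among genes found on all arrays, the strongest blue lies in complexes I and V and in Cox7a1 on days 3 to 7. Blue is paler on day 28 in most rows, but not in the dim Cox6b2 (−1.19) and Cox7b (−1.09).

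Most members were among the brightest probes. The median member stood at the 98.8th percentile of mean normalized intensity, and 60 of 77 were in the brightest 10% of the genes. In that range 26.7% of the 60 members were called lower, against 11.3% of the 1552 other genes, whose median log2 ratio was −0.04. No member reached the raw intensity of 65000 treated as saturated. The brightest was Cox5a, with raw intensities from 35158 to 64836, and its ratio may be compressed near the upper end of the scanner. Spots of 5 members were not found by the scanning software on 1 or more arrays: Cox4i2, Cox7b, Cox7b2, Cox8c and Ndufa4l2. Without these 5 genes and the 3 that are not subunits, 69 genes were left, of which 19 were called lower and 0 higher.

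To show what DNA lies at these genes, the window from 250 bases before to 50 bases after the transcription start is printed for 5 members that the results below turn on: Cox7a1, with the lowest mean ratio, Cox6a1, with TAB entirely above sham, Uqcrc1 and Sdhb, called lower in complexes III and II, and Atp5k, with the largest rise of its ratio from early to late days in complex V. The sequences are from RefSeq, build GRCm38.p6, written from 5′ to 3′ on the strand of the gene. Capitals mark matches, on either strand, to core sequences of factors known to act on respiratory genes: GCGCATGC for NRF1, AAGGTCA for the estrogen-related receptors (ERR) and CCGGAAG for GABP.
Cox7a1, chr7:30183921-30184220, plus strand: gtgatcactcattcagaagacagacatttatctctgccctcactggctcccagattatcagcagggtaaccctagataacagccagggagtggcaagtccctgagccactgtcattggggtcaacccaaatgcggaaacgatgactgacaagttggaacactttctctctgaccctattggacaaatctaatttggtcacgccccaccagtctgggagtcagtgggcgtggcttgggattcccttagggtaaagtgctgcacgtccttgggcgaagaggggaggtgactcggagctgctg
Cox6a1, chr5:115348909-115349208, minus strand: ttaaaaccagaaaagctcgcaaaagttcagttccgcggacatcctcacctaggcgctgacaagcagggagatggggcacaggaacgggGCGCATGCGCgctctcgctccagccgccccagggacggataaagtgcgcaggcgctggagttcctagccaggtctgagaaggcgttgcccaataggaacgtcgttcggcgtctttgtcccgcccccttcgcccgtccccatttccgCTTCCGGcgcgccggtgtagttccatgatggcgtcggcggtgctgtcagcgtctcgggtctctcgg
Uqcrc1, chr9:108936398-108936697, plus strand: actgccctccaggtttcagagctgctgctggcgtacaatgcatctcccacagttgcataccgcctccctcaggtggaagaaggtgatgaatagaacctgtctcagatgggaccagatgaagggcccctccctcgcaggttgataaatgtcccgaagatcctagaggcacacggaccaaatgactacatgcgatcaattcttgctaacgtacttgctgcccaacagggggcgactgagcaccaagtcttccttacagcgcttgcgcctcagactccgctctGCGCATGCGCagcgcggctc
Sdhb, chr4:140961021-140961320, plus strand: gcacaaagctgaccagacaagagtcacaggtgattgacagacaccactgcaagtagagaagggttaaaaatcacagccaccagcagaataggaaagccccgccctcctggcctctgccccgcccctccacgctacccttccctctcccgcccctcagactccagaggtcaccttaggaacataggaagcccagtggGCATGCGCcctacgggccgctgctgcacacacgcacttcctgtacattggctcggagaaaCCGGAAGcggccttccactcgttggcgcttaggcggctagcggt
Atp5k, chr5:108434350-108434649, minus strand: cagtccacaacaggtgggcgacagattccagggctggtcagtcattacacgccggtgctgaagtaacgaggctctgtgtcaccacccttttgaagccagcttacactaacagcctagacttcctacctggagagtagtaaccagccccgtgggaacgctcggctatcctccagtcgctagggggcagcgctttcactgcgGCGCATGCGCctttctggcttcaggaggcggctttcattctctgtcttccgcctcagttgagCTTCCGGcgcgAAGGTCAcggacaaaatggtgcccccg

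A window was found for 62 of the 77 members. The NRF1 sequence was in 9 of the 62 (14.5%) and in 3.05% of 27025 genes with a window, the ERR sequence in 6 (9.68%) against 5.38%, and the GABP sequence in 12 (19.4%) against 9.93%. In all, 20 members held at least 1 of them and Atp5k alone held all 3. Where the NRF1 matches of both strands overlap, as in Cox6a1, Uqcrc1 and Atp5k, they form a single run of capitals. The median log2 ratio was −0.40 for the 9 members with the NRF1 sequence and −0.30 for the 53 without it, and 3 of the 9 and 12 of the 53 were called lower. For the ERR sequence the medians were −0.49 for the 6 with it and −0.29 for the 56 without, with 3 and 12 called lower, and for the GABP sequence −0.41 for 12 and −0.30 for 50, with 4 and 11 called lower. Some members are counted under more than 1 sequence, and no difference was tested. Cox6a1 and Uqcrc1, whose TAB samples lay on opposite sides of sham, both held the NRF1 sequence. A match is only a match of letters and no binding was measured.

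Complex I, which oxidizes NADH, had 9 of 35 genes called lower and 0 higher, with a median log2 ratio of −0.33 and 31 of 35 ratios below 0. The 7 core subunits carry the flavin, the iron-sulfur clusters and the quinone site. Ndufs1, one of them, fell, and all 7 had mean ratios below 0.

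Ndufs1 holds iron-sulfur clusters of the arm that reaches into the matrix. Its normalized intensity on days 3, 5, 7, 14 and 28 was 2460, 2324, 1947, 2449 and 3288 in TAB and 4134, 4983, 4092, 3852 and 4102 in sham. The highest TAB sample was that of day 28 and still lay below every sham sample. The mean log2 ratio was −0.78 ± 0.15 (SE, 5 days), a 0.583-fold level, with a limma adjusted p of 0.0244.

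Several other core subunits did not pass the test. Ndufs3 had a mean log2 ratio of −0.41 (adjusted p 0.0722), Ndufs8, which also carries iron-sulfur clusters, one of −0.42 (adjusted p 0.0620), and Ndufs7 one of −0.24 (adjusted p 0.194). Ndufv1, which binds NADH and the flavin, had −0.21 (adjusted p 0.185), and its iron-sulfur partner Ndufv2 had −0.22 (adjusted p 0.214). In each of these 5 genes TAB and sham samples overlapped.

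The 28 genes counted with complex I outside the core hold its accessory subunits, which surround the core and serve its assembly and stability. Ndufa4 and Ndufa4l2 are among the 28 by name only. Of the 28, 7 were called lower: Ndufb2, Ndufs6, Ndufb11, Ndufb9, Ndufa7, Ndufb6 and Ndufs4. Ndufb9 had the lowest adjusted p of all members. Its values were 4095, 4188, 5260, 5309 and 5949 in TAB and 7695, 7137, 8502, 7501 and 8595 in sham, so that every TAB sample was well below every sham sample. The mean log2 ratio was −0.68 ± 0.11 (limma adjusted p 0.0191), and by day the log2 ratio ranged from −0.91 on day 3 to −0.50 on day 14.

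Ndufb2 had the lowest mean ratio in complex I, −0.88 ± 0.17 (limma adjusted p 0.0268). It read 2710, 2383, 3758, 4102 and 5290 in TAB and between 6283 and 6968 in sham. Its TAB values were higher on days 14 and 28 than on days 3 to 7, while the sham values were nearly level. Ndufb11 read 552, 539, 568, 696 and 648 in TAB and 1012, 994, 1010, 821 and 986 in sham, with a mean log2 ratio of −0.69 ± 0.13 (limma adjusted p 0.0256). The lowest of its sham samples was that of day 14. Ndufs6 was the 1 called gene whose groups overlapped, with 133 in TAB on day 28 against 129 in sham on day 7. The remaining called subunits Ndufa7, Ndufb6 and Ndufs4 had mean log2 ratios of −0.66, −0.49 and −0.49.

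At the other end of complex I, Ndufc2, Ndufb8 and Ndufa11 had mean log2 ratios of 0.04, 0.04 and 0.06 and did not pass the test. The mean of Ndufb8 rests on its sham sample of day 5, which read 18626 against 35487 to 37205 in the other sham samples. Its log2 ratio was 0.69 on day 5 and between −0.22 and −0.03 on the other days. Ndufc2 was dim, with readings of 40.5 to 58.7. Ndufa4l2, which is induced by low oxygen and resembles Ndufa4, was dim. It read 13.8, 19.1, 18.2, 21.5 and 50.1 in TAB and 31.6, 21, 21.2, 11 and 14.1 in sham, and its spot was found on 1 TAB and 1 sham array. Such values are near the background, and no ratio of it is read further.

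Complex II is also an enzyme of the citric acid cycle and has no subunit encoded in the mitochondrial genome. Its genes Sdha and Sdhb, the parts that oxidize succinate, fell, and the membrane anchors Sdhc and Sdhd had ratios below 0 without passing. Sdha, which binds the flavin, read 14299, 13822, 13661, 12959 and 15317 in TAB and 20040, 20111, 18240, 19173 and 18626 in sham. The groups did not overlap and the ratio was smallest on day 28, at −0.28, with a mean log2 ratio of −0.46 ± 0.10 (limma adjusted p 0.0305).

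Sdhb, the iron-sulfur subunit, read 13906, 13868, 16609, 16609 and 17226 in TAB and 21477, 19597, 20850, 21709 and 20276 in sham, again without overlap (mean log2 ratio −0.42 ± 0.10, limma adjusted p 0.0428). Sdhd also had no overlap, with a mean log2 ratio of −0.39 ± 0.11 (adjusted p 0.0547), and its lowest ratio, −0.64, was on day 28. Sdhc read 7924, 6652 and 6313 in TAB on days 3, 5 and 7 against 10821, 10658 and 10991 in sham, but 7807 in both operations on day 14 and 9061 against 8415 on day 28. Its mean log2 ratio was −0.36 ± 0.17 (adjusted p 0.179).

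Complex III passes electrons from coenzyme Q to cytochrome c. Uqcrc1 and Uqcrfs1 fell, and the other 4 genes did not pass. Uqcrc1, a core protein, read 4425, 4231, 5216, 5363 and 6136 in TAB and 6862, 7301, 8034, 8034 and 8287 in sham. The groups were clear of each other and the mean log2 ratio was −0.61 ± 0.10 (limma adjusted p 0.0200). Uqcrfs1, the Rieske iron-sulfur protein, read 12140, 11093, 11790, 12582 and 14244 in TAB and 18132, 19415, 16042, 17650 and 18881 in sham, with a mean log2 ratio of −0.55 ± 0.11 (limma adjusted p 0.0256).

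The partner core protein Uqcrc2 differed from Uqcrc1 in its values. It read between 22881 and 26154 in TAB and between 23187 and 26426 in sham, and its mean log2 ratio was −0.05 ± 0.09 (adjusted p 0.742). Uqcr11, a small subunit, had log2 ratios of −0.74, −0.82 and −0.76 on days 3, 5 and 7 and of −0.26 and 0.08 on days 14 and 28 (mean −0.50, adjusted p 0.0860). Uqcrq, which lies near the quinone-binding cytochrome b, had a mean log2 ratio of −0.15 (adjusted p 0.301), and Uqcr10 had 0.13 (adjusted p 0.349).

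Complex V had 5 of 14 genes called lower and 0 higher, with a median log2 ratio of −0.35. The called genes belong to its catalytic head, its stalk and its membrane part. Atp5a1, the alpha subunit, read 8322, 6690, 8739, 10320 and 11490 in TAB and 13469, 15932, 11790, 16494 and 16609 in sham, with all TAB samples below all sham samples (mean log2 ratio −0.72 ± 0.14, limma adjusted p 0.0276). Atp5b, the catalytic beta subunit, also had no overlap, but its mean log2 ratio of −0.36 ± 0.12 did not pass (adjusted p 0.0827). Its sham sample of day 28 read 3428 against 2270 to 2481 in the other sham samples.

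Of the stalk, Atp5c1 (gamma subunit) fell with a mean log2 ratio of −0.50 ± 0.10 (limma adjusted p 0.0284), with readings of 106 to 157 in TAB and 168 to 197 in sham. Atp5e (epsilon subunit) read 6445, 6392, 7406, 8160 and 9180 in TAB and 12480, 11991, 11214, 10525 and 10189 in sham. Its groups did not overlap, and the distance between them was widest on day 3 and narrowest on day 28. The mean log2 ratio was −0.60 ± 0.15 (limma adjusted p 0.0450). Atp5g1 encodes the ring that turns in the membrane, as do Atp5g2 and Atp5g3, all with the same mature protein. Atp5g1 was called lower (mean log2 ratio −0.39, limma adjusted p 0.0423), and Atp5g2 and Atp5g3 had mean log2 ratios of −0.34 and −0.30 (adjusted p 0.0752 and 0.0702), also without overlap of the groups.

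Atp5k, the e subunit at which ATP synthases pair up, read 4228, 4599, 5126, 6134 and 8440 in TAB and 9372, 10958, 9180, 8692 and 8814 in sham. Its TAB value was near the sham values by day 28, where the log2 ratio was −0.06, against −1.15 on day 3 and −1.25 on day 5. The mean log2 ratio was −0.76 ± 0.20 (limma adjusted p 0.0459). Atp5o, which joins the head to the stator, was the member of complex V with a ratio above 0. It read 240, 269, 299, 270 and 271 in TAB and 257, 231, 254, 180 and 206 in sham, and its mean log2 ratio of 0.27 ± 0.13 did not pass (adjusted p 0.183).

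**Figure D2:**
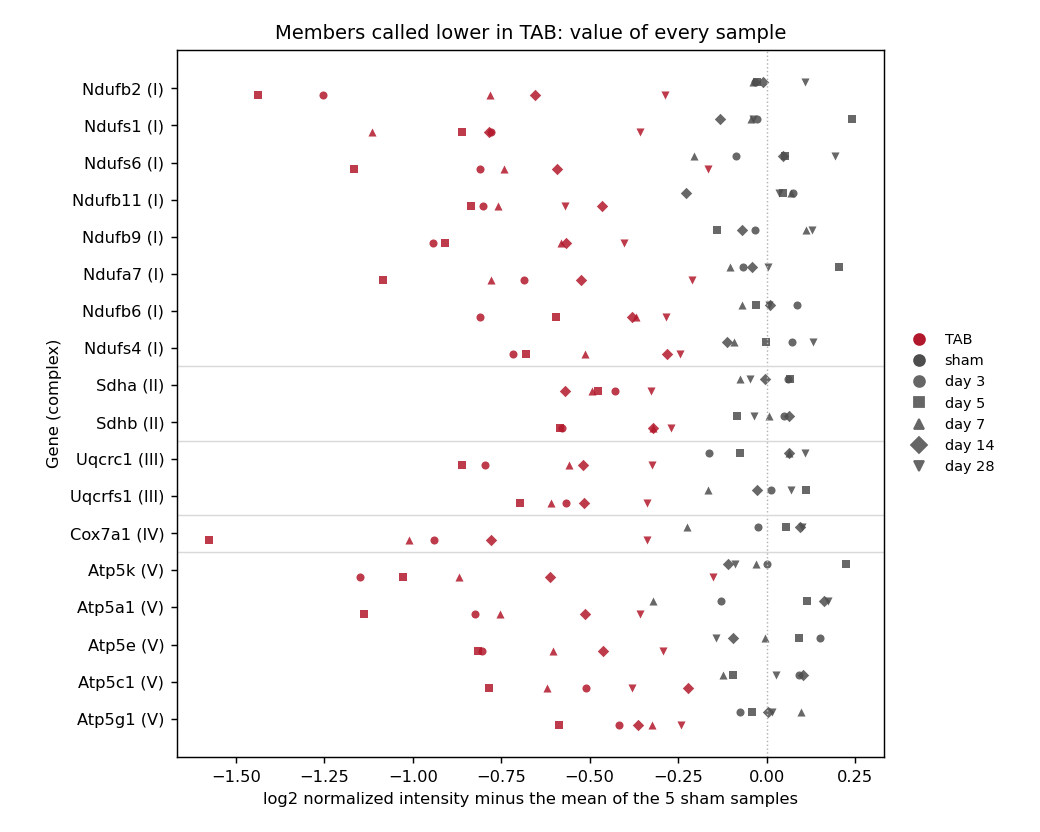
Every sample of genes called lower, as log2 normalized intensity minus the mean of the 5 sham samples of the gene (x axis), with TAB in red, sham in grey and a marker for each day. Red and grey points are separate in every row but that of Ndufs6, and the day 28 TAB sample is the TAB sample nearest to sham in most rows.

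Complex IV, the oxidase, had the lowest share of calls: 1 of 18 genes, 5.56%, was called lower, near the 8.22% of all genes. Its median log2 ratio was −0.18, with 12 of 18 ratios below 0. The 18 include Cox4nb, which is not a subunit, and Cox4i2, Cox7b, Cox7b2 and Cox8c, which were not found on all arrays. The difference between complexes was not tested. The called gene was Cox7a1, the isoform of subunit 7a of heart and skeletal muscle. It read 2882, 1854, 2741, 3224 and 4376 in TAB and 5431, 5742, 4728, 5899 and 5930 in sham. All TAB samples were below all sham samples, and the log2 ratio was −1.63 on day 5 and −0.44 on day 28. Its mean of −0.93 ± 0.18, a 0.525-fold level, was the lowest of all 77 members (limma adjusted p 0.0256).

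None of the other genes of complex IV passed the test. Cox5a had a mean log2 ratio of −0.11 (adjusted p 0.592) at the upper end of the scanner, and Cox5b one of −0.18 (adjusted p 0.27). Cox4i1, the main form of subunit 4, read 27167 to 35106 in TAB and 32611 to 35487 in sham (mean log2 ratio −0.18, adjusted p 0.261), and Cox6b1 read 14832 to 16042 in TAB and 13822 to 16119 in sham (0.07, adjusted p 0.644). Cox6c, a small subunit, was dim, with a mean log2 ratio of −0.28 (adjusted p 0.327) and values of −0.73 on days 3 and 7 and 0.36 on day 28. Cox7b was not found on all arrays. Cox7a2l had a mean log2 ratio of −0.33 (adjusted p 0.104) on its brightest probe and of 0.08 on a dimmer one. Probes of a gene also lay on opposite sides of 0 for Ndufv3, with −0.33, −0.46 and 0.13, and for Cox4nb, with 0.21 and −0.44. Cox8c, a form of subunit 8 known from testis, was not found on any array, and no ratio of it is given.

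Cox6a1, the form of subunit 6a found in most tissues, was the member with TAB entirely above sham. It read 15573, 13038, 13616, 10481 and 10969 in TAB and 9180, 8991, 9138, 10189 and 9668 in sham. The TAB samples of days 14 and 28 were just above the highest sham sample, and the mean log2 ratio of 0.42 ± 0.14 did not pass the test (limma adjusted p 0.0831). Its muscle counterpart Cox6a2 read 19001, 20276, 19315, 21477 and 26426 in TAB and 28486, 28808, 28630, 26816 and 28486 in sham, without overlap, and had a mean log2 ratio of −0.42 ± 0.11 (limma adjusted p 0.0527).

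Whether isoforms of one subunit moved against each other was asked by the change of their log2 difference, sample by sample, since the levels of different probes cannot be compared. The 6 pairs, each an isoform of most tissues or an inducible one minus the heart or main isoform, were tested with a two-sided exact permutation test over all 252 ways to assign the operations to the samples and adjusted over the 6 pairs. The smallest p that this design can give is 0.00794. The difference Cox6a1 minus Cox6a2 was 1.30, 0.95, 1.08, 0.55 and 0.31 above the sham mean in the TAB samples of days 3 to 28, and between −0.10 and 0.19 in sham. The groups did not overlap. The shift was 0.84 log2 units, a 1.79-fold change of the ratio of the pair (exact permutation p = 0.00794, adjusted 0.0238).

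Cox8a minus Cox8b, where Cox8b is the heart and muscle form, shifted by 0.43 (exact permutation p = 0.00794, adjusted 0.0238), again without overlap. Cox8a itself had a mean log2 ratio of 0.10 and Cox8b one of −0.32, and neither passed (adjusted p 0.510 and 0.129). Cox7a2 minus Cox7a1 shifted by 0.70 (exact permutation p = 0.0159, adjusted 0.0317), with 1.43 above the sham mean on day 5 and 0.04 on day 28, where TAB and sham overlapped. Cox7a2 had a mean log2 ratio of −0.23 (adjusted p 0.187). In all 3 pairs the difference was above sham on 5 of 5 days. For Cox7a2 minus Cox7a1 on day 28, TAB was above sham by only 0.004, which is nearly level. With sign flips of the 5 day pairs in place of all assignments, the smallest possible p is 0.0625, so no pair can pass, and these 3 pairs were at that smallest p (adjusted 0.125). Under median scaling alone or quantile normalization within each operation, the shift of Cox7a2 minus Cox7a1 was 0.55 and 0.60 and its adjusted p was 0.0635 and 0.0794 by the exact permutation test.

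The other 3 pairs have a dim partner, and none of them was called. Cox4i2, a form known from lung, read 15.4 in TAB on day 3 and 46.8 to 57.4 in the other TAB samples, against 39.1 to 102 in sham, so that the shift of Cox4i2 minus Cox4i1 was −0.46 with day 3 and 0.06 without it. Cox6b2, a form known from testis, read 45.8 to 70.6 in TAB and 46.8 to 104 in sham, and its pair with Cox6b1 shifted by −0.25 over all days and by 0.01 without day 28. The exact permutation p was 0.397 for both of these pairs. The shift of Ndufa4l2 minus Ndufa4 is not read, because Ndufa4l2 was found on 1 array of each group, though its pair is counted among the 6. Ndufa4 itself had a mean log2 ratio of −0.12 (adjusted p 0.521).

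**Figure D3:**
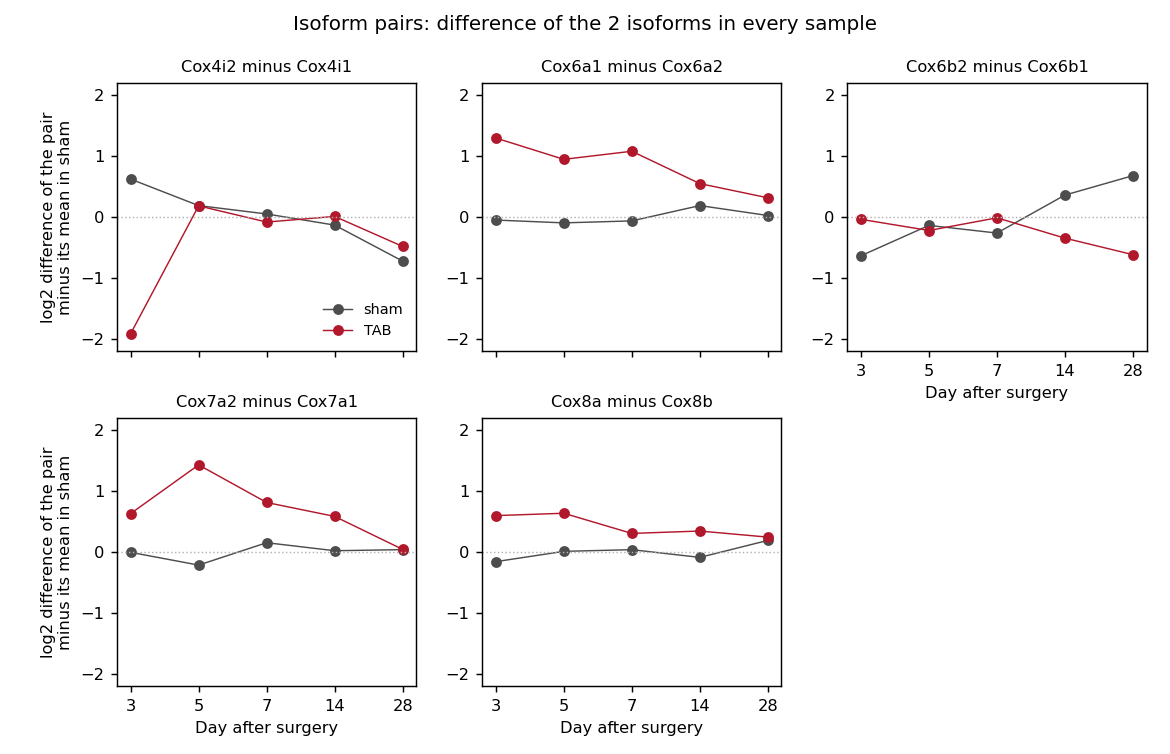
Difference of log2 normalized intensity between the isoforms of 5 pairs, minus its mean in sham, against day after surgery (the days are evenly spaced on the axis), with 1 sample per point. TAB lies above sham on all 5 days for Cox6a1 minus Cox6a2, Cox7a2 minus Cox7a1 and Cox8a minus Cox8b, least on day 28. For Cox7a2 minus Cox7a1 the points of day 28 nearly coincide (0.004 apart).

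By day, the median log2 ratio of the 77 members was −0.44, −0.42 and −0.33 on days 3, 5 and 7, −0.22 on day 14 and −0.11 on day 28, while that of all genes stayed between −0.06 and −0.01. Between any pair of sham samples of different days the median difference of the members was at most 0.08 in size. On day 28, 52 of 77 members were below sham, against 66, 69, 68 and 62 on days 3, 5, 7 and 14. The medians of complex I went from −0.44 on day 3 to −0.21 on day 28, those of complex II from −0.47 to −0.26, of complex III from −0.36 to −0.06, of complex IV from −0.21 to −0.01 and of complex V from −0.53 to −0.11. A single day has no replicate, and no member found on all arrays had a ratio beyond 2 SD of all genes on any day. The 3 members beyond that limit (Cox4i2, Cox8c and Ndufa4l2) were dim, and 17% of all genes passed it on at least 1 day. The lowest member found on all arrays was Cox7a1 on days 5 and 14, Ndufs1 on day 7 and Cox6b2 on day 28, and the highest was Cox6a1 on days 3 and 7.

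The same fit tested whether the mean TAB effect of the early days (3 to 7) differed from that of the late days (14 and 28). No member and no gene passed (limma, 0% of all genes), and at an unadjusted p under 0.05 there were 9 members of 77, against 11.3% of all genes, so the members did not stand out by this count. Of the 9, 6 were higher and 3 lower in late minus early. The late minus early difference was above 0 for 63 of 77 members, with a median of 0.23 against 0.01 for all genes. Among members found on all arrays it was 0.80 for Atp5k, 0.70 for Sdhc and 0.69 for Uqcr11, and −1.13 for the dim Cox6b2 (unadjusted limma p 0.0223, 0.0179, 0.0177 and 0.0173, adjusted p 0.392, 0.389, 0.387 and 0.387). For Cox6a1 it was −0.51, from a ratio of 0.76 on day 3 to 0.18 on day 28.

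**Figure D4:**
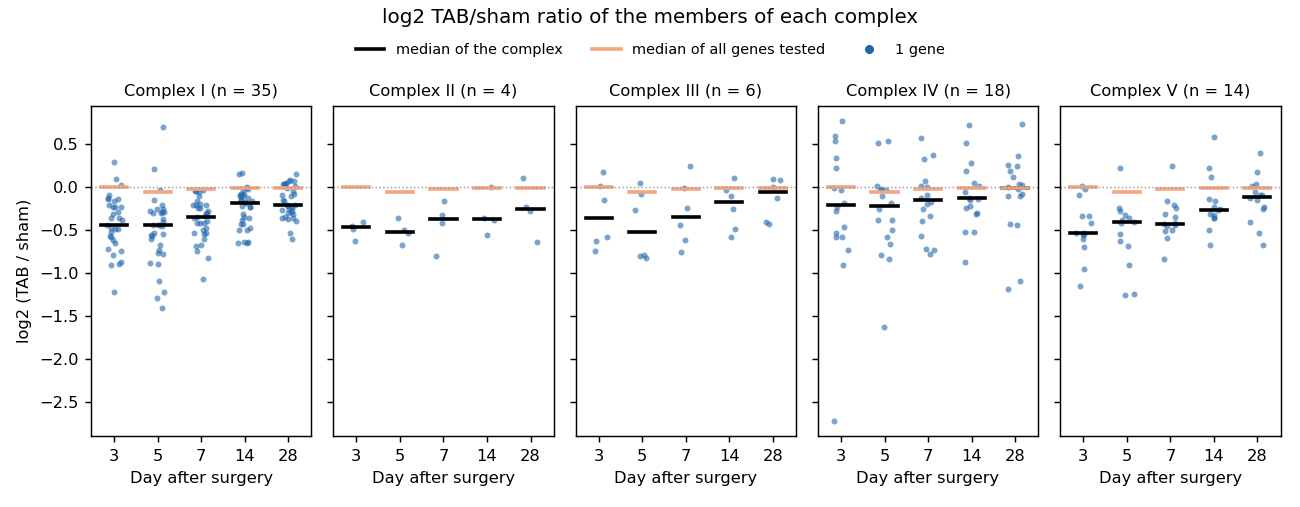
log2 TAB/sham ratio of the genes (blue points) by complex and day after surgery, with the median of the complex (black) and of all genes tested (orange). Cox8c and Ndufa4l2, found on at most 1 array of each group, have no point but are in the medians; the black lines lie below the orange ones on days 3 to 14 in all 5 complexes and come nearest to them on day 28 in complexes III and IV.

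Other genes of energy metabolism were read from lists of related genes. The citric acid cycle and pyruvate dehydrogenase, which feed the chain with NADH, had 9 of 18 genes called lower and 0 higher, with a median log2 ratio of −0.36. Fatty acid oxidation, the main fuel path of the adult heart, had 6 of 13 lower and 0 higher, with a median of −0.44. Electron carriers and coenzyme Q synthesis had 5 of 15 lower, among them Etfdh, which brings electrons from fatty acid oxidation to coenzyme Q (mean log2 ratio −0.64, limma adjusted p 0.0209), and 1 higher, Adck4. Assembly factors of the complexes had 5 of 23 lower, with Tmem70 of complex V at −0.72 (limma adjusted p 0.0241) and Ecsit of complex I at −0.59 (limma adjusted p 0.0256), and 1 higher, Cox19, which serves the copper supply of complex IV, at 0.80 (limma adjusted p 0.0141). Genes of mitochondrial quality control and stress had 3 of 12 lower and 0 higher.

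Regulators of mitochondrial biogenesis had 3 of 17 lower and 1 higher, and 2 lower and 0 higher among the 14 found on every array. The higher one, Tfb1m, was near the background, found on 2 TAB and 0 sham arrays. The coactivator Ppargc1a was dim and was found on 4 of 5 TAB arrays. It fell by 1.36 on the log2 scale (limma adjusted p 0.0165), a size limited by the background, and Ppara, a nuclear receptor of fatty acid oxidation, fell by 0.84 (limma adjusted p 0.0263), both with overlapping groups. The receptor Esrra, which binds the ERR sequence, had a mean log2 ratio of −0.36 (adjusted p 0.0738). Carriers, porins and the inhibitor of the ATP synthase had 0 of 7 called in either direction, with a median log2 ratio of −0.16. In all lists the percentages are to be read against 8.22% lower and 9.52% higher among all genes.

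Whole ventricle holds several cell types, and fewer cardiomyocytes among its cells cannot be told apart from less RNA of these genes per cell. Of 12 cardiomyocyte markers, all found on every array, 1 was called lower (Atp2a2, the calcium pump, mean log2 ratio −0.42, limma adjusted p 0.0415), 9 had ratios below 0 and the median log2 ratio was −0.13. Their summed normalized intensity was 354845 to 370047 in TAB and 375880 to 406438 in sham, without overlap. Myl2 was saturated on 9 of 10 arrays, so its ratio is not measured. Without it the sums were 289350 to 304547 in TAB and 310380 to 340938 in sham, and the median log2 ratio of the other 11 was −0.14. Of 8 fibroblast markers 5 were called higher, 4 of them found on every array, and their sum was 41551 to 58000 in TAB and 31940 to 34151 in sham. Of 9 leukocyte markers 7 were called higher and 1, Cd3e, lower. One of the 7, S100a8, was not found on any array, which leaves 6 higher among the 8 markers found on every array. The sum of all 9 was 5192, 5962, 5750, 3204 and 2796 in TAB on days 3, 5, 7, 14 and 28 and 2012 to 2505 in sham, so that it was higher on days 3 to 7, when the members were lowest, than on days 14 and 28. The part of these markers in the results on the members was not tested.

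The other marker lists gave 0 of 8 endothelial, 0 of 4 skeletal muscle and 0 of 3 erythroid genes called, 2 of 5 smooth muscle and 1 of 5 adipocyte genes called higher, and none lower. The summed intensity was 11878 to 15636 in TAB and 11162 to 13200 in sham for endothelial, 9888 to 12280 and 8779 to 10164 for smooth muscle, 2537 to 3309 and 1923 to 2436 for adipocyte, 10805 to 15501 and 15294 to 17913 for skeletal muscle and 428 to 829 and 307 to 375 for erythroid markers. Of these markers, Actn3 and Slc4a1 were not found on any array, and Tagln, one of the smooth muscle genes called higher, was found on 4 TAB and 0 sham arrays.

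**Figure D5:**
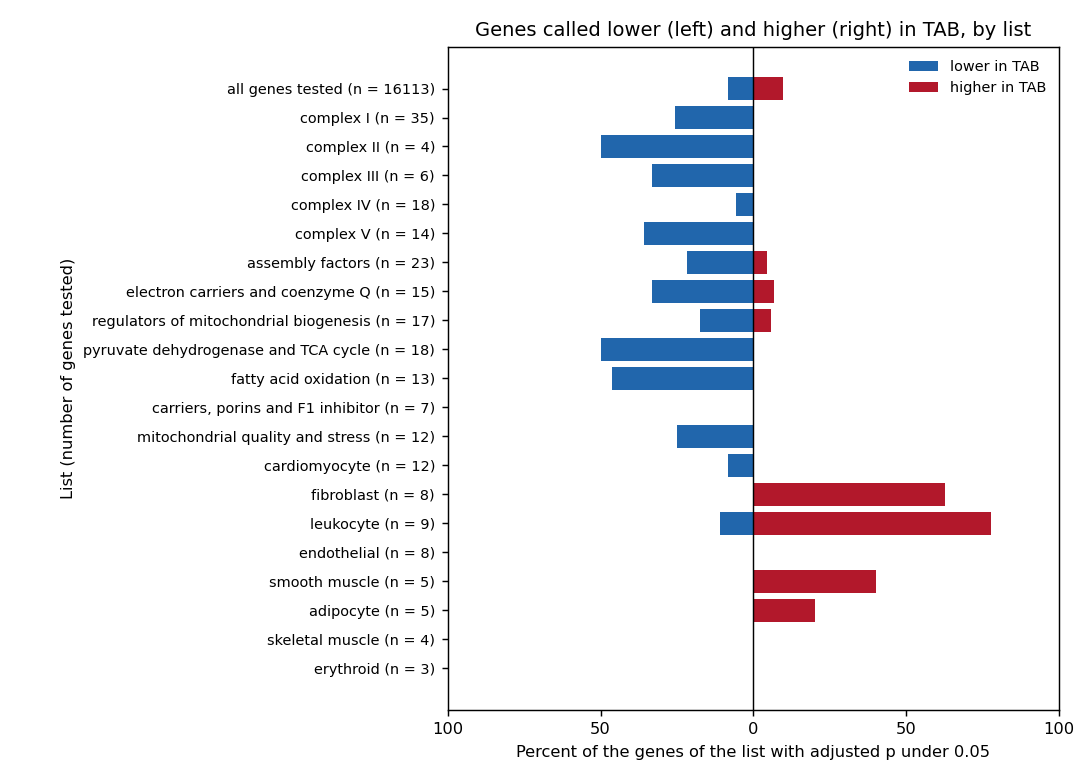
Percent of the genes of each list (y axis, with the number of genes tested) that had an adjusted p under 0.05, lower in TAB to the left and higher to the right. Complexes I, II, III and V lie at 25.7% to 50% lower and complex IV at 5.56%, against 8.22% of all genes, and the fibroblast and leukocyte lists lie to the right.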

How the data were processed

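Gene expression was measured in 5 TAB and 5 sham samples of left ventricle on a 1-colour Cy5 oligonucleotide array, scanned with an Agilent scanner and read with GenePix. The authors deposited raw intensity per probe with no scaling between arrays; the background method, slide and scan date are not given in the sources used here. A deposited p-value of detection was not used. A deposited flag, whose meaning is not stated, was read as GenePix commonly uses it: a negative flag is a spot not found. Probes with no symbol, 3633 in number, did not enter.

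After the study's methods, all arrays were brought to the same median and probes under 1 on any array were dropped (19976 kept). Quantile normalization over the 10 samples then used the median at each rank, and log2 was taken. The study's text can be read as taking these medians per operation, which was an alternative. Unlike in the study, a gene was read from its brightest kept probe, since choosing by the size of the ratio selects on the outcome; the study's rule was an alternative. A member's log2 ratio is TAB minus sham within a day. Tests used limma (lmFit and eBayes) with a block for day, and calls were made at 0.05 after adjustment by Benjamini and Hochberg. The pairing by day comes from the labels. After subtraction of the group mean, the TAB and the sham sample of day 3 correlated over genes with r = 0.14, and those of later days with r = −0.01, 0.04, 0.01 and 0.02. The fit was tested on simulated data. Nothing says whether samples came from separate animals or pools. Precision is limited by how few arrays there are.

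The members, lists, isoform pairs and tests were chosen with earlier results of these data known. Genes named are those of the isoform pairs, complex II and the core or catalytic subunits, the 4 lowest p-values per complex, the highest and lowest ratio of each day, the 5 lowest p-values for late against early, and up to 3 per other list, not all of which are printed. 1 member is in the counts and medians but is not reported here. Other called genes, those lying on opposite sides of 0 and Cox6c, Uqcr10, Atp5g2, Atp5g3, Esrra, Cd3e, Actn3, Slc4a1, Tfb1m, Tagln, Myl2, S100a8 and those above 0 in complex I were named after their values were seen. Promoter windows were matched by symbol or synonym. Tools were Python 3.11.15, numpy 2.4.6, pandas 2.3.3, matplotlib 3.10.9, R 4.3.3 and limma 3.58.1.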

Additional observations from a re-analysis of the deposited data

Results flagged for a closer look

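Only members named by the rules given above were looked at here. A sample lay far from the other 4 of its group in 6 of their 82 groups of 5. Chance gives such a gap in about 1 in 20 groups. Members named after their values were seen were not in these groups. Ndufb8 is one of them, with 18626 in sham on day 5, against 35487 to 37205 in the other sham samples. The normalized intensity of Atp5b was 3428 in sham on day 28, against 2270 to 2481 in the other sham samples, so its ratio on day 28 was its lowest. Cox4i2 read 15.4 in TAB on day 3, against 46.8 to 57.4 on the other days, and its spot was found on 4 of 5 TAB arrays. Cox6a2 read 26816 in sham on day 14, against 28486 to 28808, and Ndufb11 read 821 in sham on the same day, against 986 to 1012. Ndufa4 read 45489 in sham on day 3, against 39884 to 40988, and Ndufs1 read 4983 in sham on day 5, against 3852 to 4134.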

How the results depend on the processing

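The median log2 ratio of the members kept its direction and moved by less than the SD of the day medians (0.14) under all 18 alternatives run for it. For late against early no member passed under any of 19, which says little about stability, since no gene at all passed under 14 of them and 5 to 34 genes under the other 5. At an unadjusted p under 0.05 the members ran from 3 to 22. The count of members called lower (19) stayed within 1.5 times under 9 of 19 alternatives, among them the other normalizations and probe rules and the leaving out of saturated probes. It was 40 with 50 added before log2, 34 without the dimmest tertile of genes, 34 with probes not found on any 1 array left out, 41 with trend and robust on, and 30 with no replicate block, so the day pairing lowered it. Under each of these 5 settings all 19 genes were among those called and 1 member, up from 0, was called higher. It was 3 with probes below 1 set to 1, where 19942 genes were tested, and 0 to 18 when each day was left out in turn. Among all genes 53.7% of calls were higher, and 67.7% under median scaling only and 66.5% under quantile normalization within each operation, where 14 and 20 members were lower and 0 higher.

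For the isoform pairs, the shift of Cox7a2 minus Cox7a1 lost its call under median scaling only (0.55) and quantile normalization within each operation (0.60). Cox6b2 minus Cox6b1 passed with the probe of the largest sum of absolute ratios (−0.54), a rule that selects on the outcome. Without day 3, 5, 7, 14 or 28 in turn, Cox6a1 minus Cox6a2 was 0.709, 0.785, 0.760, 0.956 and 0.973, Cox7a2 minus Cox7a1 was 0.718, 0.466, 0.712, 0.736 and 0.876, and Cox8a minus Cox8b was 0.345, 0.377, 0.467, 0.425 and 0.520. None passed, since 4 against 4 samples give a p of 0.0286 at the least by the exact permutation test, and adjusted p-values of 0.0571 or more. Cox4i2 minus Cox4i1 was −0.633 to 0.0617 (0.0617 without day 3) and Cox6b2 minus Cox6b1 −0.460 to 0.0144 (0.0144 without day 28), both changing sign. With a replicate block (sign flips of the day pairs) the shifts of 0.84, 0.70 and 0.43 stayed and their calls were lost, as no p under 0.0625 is possible. Leaving out the 5 dim genes and 3 that are not subunits was chosen after seeing the data and gave 19 lower. Dim probes (Cox4i2, Cox7b, Cox7b2, Cox8c, Ndufa4l2) are limited by signal near background, and Cox5a by the upper end of the scanner.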

Other observations

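Of the 10 members with several probes on the array, 7 would be read from another probe under the rule of the largest sum of absolute ratios. The dimmer probe of Atp5g1 had a mean log2 ratio of −0.69, against −0.39 for the brightest, and that of Cox7a2 had −0.42 against −0.23. The dimmer probe of Cox6a2 had −0.23 against −0.42, so the choice of probe moved ratios either way.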
